A study of Mus musculus with 6 samples.

Results

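Lrtm1, Rtn4r and Pla2g5 are 3 protein-coding mouse genes on different chromosomes whose transcripts were low in hearts of Ythdc1 knockout mice, with mean residues of 4.69%, 2.87% and 15.5% of the control level. One knockout heart kept 3.50 FPKM of Pla2g5. They are 3 of 54532 genes in the deposited table and were picked by name from among the largest falls in mean FPKM (fragments scaled to gene length and library size) between flox control and knockout hearts. Their fall is what selected them, so it is described below without a test. Hearts came from 3 mice with floxed Ythdc1 alleles (genotype Ythdc1flox/flox, called flox control here) and 3 conditional knockout mice (genotype Ythdc1-CKO, called CKO here). Both groups were kept on ordinary chow for 15 days. Age, the Cre line, the cells in which it acts and the part of Ythdc1 that it deletes are not given in the sources used here. Per the labels, the 3 libraries of a group are independent biological replicates.

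Ythdc1 encodes a nuclear protein that binds N6-methyladenosine (m6A), a modified base in RNA, and takes part in splicing, export and polyadenylation of the transcripts it binds. Lrtm1 encodes a single-pass membrane protein with extracellular leucine-rich repeats, a fold used for protein binding at the cell surface. Rtn4r encodes the Nogo receptor, a leucine-rich repeat protein held at the membrane by a lipid anchor, which in neurons binds myelin proteins such as Nogo-A and signals through partner receptors to the actin cytoskeleton. Pla2g5 encodes group V phospholipase A2, a small secreted enzyme that frees fatty acids from membrane phospholipids. One of these, arachidonic acid, is the precursor of prostaglandins and leukotrienes.

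Lrtm1 (ENSMUSG00000045776) lies on the plus strand at chr14:29018208-29033645 of GRCm38, Rtn4r (ENSMUSG00000043811) on the plus strand at chr16:18127642-18152408, and Pla2g5 (ENSMUSG00000041193) on the minus strand at chr4:138799244-138863482. The bases just upstream of their transcription starts are shown because promoter sequence did not enter the choice of these genes, which were low in the same hearts. Each run is the 250 bases before a start in RefSeq on GRCm38.p6, written on the gene's own strand. Capitals mark every match, on either strand, to the E-box CANNTG, the GATA-type motif GATAA, the CCAAT box, or CATTCC, the core of the TEAD motif. Pla2g5 has separate runs for its distal start and for a proximal start that lies inside the longer transcript.
Lrtm1 (chr14:29017958-29018207, plus strand): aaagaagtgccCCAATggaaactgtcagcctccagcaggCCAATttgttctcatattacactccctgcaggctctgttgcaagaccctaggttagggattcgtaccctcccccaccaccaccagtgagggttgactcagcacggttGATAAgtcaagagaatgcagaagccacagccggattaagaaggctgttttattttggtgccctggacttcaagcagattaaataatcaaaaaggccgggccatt
Rtn4r (chr16:18127392-18127641, plus strand): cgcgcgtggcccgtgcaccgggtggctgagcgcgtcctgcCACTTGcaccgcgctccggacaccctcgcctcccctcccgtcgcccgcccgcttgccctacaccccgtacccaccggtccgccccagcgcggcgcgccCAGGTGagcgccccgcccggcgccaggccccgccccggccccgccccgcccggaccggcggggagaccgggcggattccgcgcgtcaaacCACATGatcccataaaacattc
Pla2g5 distal (chr4:138863470-138863719, minus strand): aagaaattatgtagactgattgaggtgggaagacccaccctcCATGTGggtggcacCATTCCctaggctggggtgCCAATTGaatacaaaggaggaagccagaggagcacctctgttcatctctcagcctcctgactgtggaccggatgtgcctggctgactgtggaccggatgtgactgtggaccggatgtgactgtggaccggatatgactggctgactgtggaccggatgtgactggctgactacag
Pla2g5 proximal (chr4:138819258-138819507, minus strand): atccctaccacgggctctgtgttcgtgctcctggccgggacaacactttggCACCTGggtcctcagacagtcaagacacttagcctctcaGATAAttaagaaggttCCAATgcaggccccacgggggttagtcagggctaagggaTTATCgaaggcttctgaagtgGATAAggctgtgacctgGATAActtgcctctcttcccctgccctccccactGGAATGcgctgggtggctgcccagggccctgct

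The promoters were unlike each other in base composition. The Rtn4r window was 77.2% G or C with 38 CpG pairs, more than 98.1% of 32851 RefSeq windows of the same length, whose median was 6 pairs. The Lrtm1 window held 4 CpG pairs at 49.2% G or C, and the Pla2g5 windows 5 and 6. No motif searched occurred in every window. The E-box, present in 66.2% of all windows, matched 3 times in Rtn4r, 2 times in the distal and 1 time in the proximal Pla2g5 window, and not in Lrtm1. The motif GATAA, present in 22.6% of all windows, matched 4 times in the proximal Pla2g5 window and 1 time in Lrtm1. The motif CCAAT, in 33.8% of windows, matched 2 times in Lrtm1 and 1 time in each Pla2g5 window, and its distal Pla2g5 match overlaps an E-box. The motif CATTCC, in 12.6% of windows, matched 1 time in each Pla2g5 window. Motifs without a match here were TATAAA (12.4% of all windows), the receptor half-site AAGGTCA (4.08%), the MEF2 consensus (2.92%) and the serum response factor consensus CArG (1.47%). The distal Pla2g5 window also repeats a run of 20 bases in 3 exact copies:
Pla2g5 distal repeat: CTGACTGTGGACCGGATGTG

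In control hearts all 3 genes were expressed at moderate levels. Lrtm1 gave 21.2, 24.3 and 20.1 FPKM in replicates 1, 2 and 3, and its mean lay above those of 85.0% of the 12144 genes that averaged 1 FPKM or more. Pla2g5 gave 9.74, 9.73 and 10.3 FPKM and was the steadiest of the 3, with an SD of 3.06% of its mean. Rtn4r was the most variable, at 9.37, 15.7 and 6.89 FPKM, so its highest control held 2.27 times the FPKM of its lowest. That relative spread was wider than in 95.5% of those genes. FPKM is scaled by gene length, so levels of the 3 genes can be set side by side. Lrtm1 stood above the others in every control, while Rtn4r and Pla2g5 did not differ beyond the spread of Rtn4r.

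Lrtm1, the highest of the 3 genes in controls, was low but uneven in the knockout. CKO replicates 1, 2 and 3 gave 0.295, 1.81 and 0.966 FPKM, from 42, 280 and 139 reads, where controls had 2851 to 3389 reads. These libraries lay far below the controls and varied by 6.15 times among themselves. Their 95% Poisson intervals, which cover counting error only, did not meet: 0.213 to 0.399 FPKM in CKO 1, 1.61 to 2.04 in CKO 2 and 0.812 to 1.14 in CKO 3. Averaged over replicates (SD, n = 3), controls had 21.9 ± 2.19 FPKM and CKO hearts 1.02 ± 0.761 FPKM, which is 4.69% of the control level. CKO 2 moves that value most, and without it the residue was 2.88%.

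Rtn4r, the Nogo receptor gene, showed the lowest and most even residue. CKO replicates 1, 2 and 3 gave 0.288, 0.371 and 0.256 FPKM, from 10, 14 and 9 reads, where controls had 266 to 533 reads. The counting intervals of the CKO libraries overlapped, at 0.138 to 0.529 FPKM in CKO 1, 0.203 to 0.623 in CKO 2 and 0.117 to 0.487 in CKO 3. Differences among CKO hearts were thus not detectable at this depth. Averaged over replicates (SD, n = 3), controls had 10.6 ± 4.52 FPKM and CKO hearts 0.305 ± 0.0594 FPKM, a residue of 2.87%. The lowest control still held 18.5 times the FPKM of the highest CKO library, so the wide spread among controls did not bring the groups near each other.

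Pla2g5 was reduced less evenly than the other two. CKO replicates 1, 2 and 3 gave 3.50, 0.570 and 0.555 FPKM, from 181, 32 and 29 reads, where controls had 475 to 590 reads. CKO 1 stood apart, with a counting interval of 3.01 to 4.05 FPKM, while those of CKO 2 (0.390 to 0.805) and CKO 3 (0.372 to 0.797) overlapped. Averaged over replicates (SD, n = 3), controls had 9.91 ± 0.303 FPKM and CKO hearts 1.54 ± 1.69 FPKM, a residue of 15.5%. CKO 1 decides that value, and without it the residue was 5.68%. CKO 1 was the highest CKO library for Pla2g5 and the lowest for Lrtm1, so the 3 genes did not share an order over the knockout hearts.

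**Figure D1:**
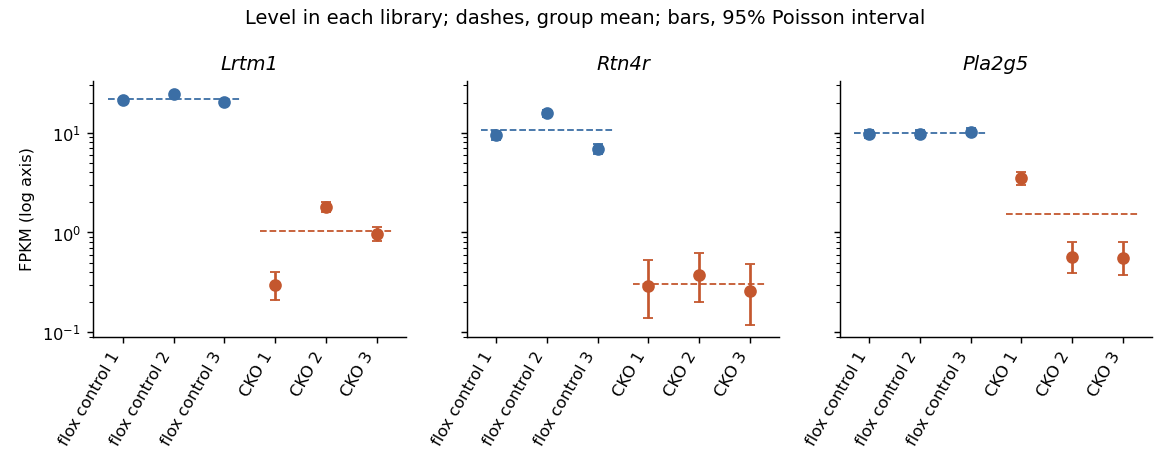
Level of each gene in every library, in FPKM on a log axis; dashes are group means (n = 3) and bars are 95% Poisson intervals of the reads behind each point. Every CKO point (orange) lies below every flox control point (blue), CKO 1 is lowest for Lrtm1 at 0.295 FPKM and highest for Pla2g5 at 3.50 FPKM, and Rtn4r varies most among controls.

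By the ratio of mean FPKM, Rtn4r ranked 5th, Lrtm1 10th and Pla2g5 39th lowest of the 12144 genes. By the plain difference in mean FPKM, which favours abundant transcripts, Lrtm1 ranked 245th, Rtn4r 423rd and Pla2g5 504th. The genes next to Rtn4r in the order of ratios were Gm15502, with a residue of 2.44%, and the amino acid transporter gene Slc36a2 with 3.04%. Those next to Lrtm1 were Gm48866 with 4.61% and 2210407C18Rik with 4.78%, and those next to Pla2g5 were Kcnj3, a potassium channel gene, with 15.5% and 4632428C04Rik with 15.8%. After a log2 transform of FPKM + 1, which shrinks changes of low genes, the differences were -3.56 for Lrtm1, -3.09 for Rtn4r and -2.30 for Pla2g5. Lrtm1 and Rtn4r were then the 2 lowest of all genes. The groups did not overlap for any of the 3 genes, as was the case in 34.3% of all genes tested (17.4% with CKO lower). The choice of the genes fixed this count, and nothing is read from it.

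Several properties of the libraries bear on every value here. Recovered reads numbered 17434296 to 19360428 per library. Ythdc1 itself lay at 3.64 to 4.31 FPKM in controls and 2.34 to 2.57 FPKM in CKO, with no overlap (log2 fold change -0.54, SE 0.09, limma adjusted p = 0.0150). Its mean FPKM in CKO was 60.7% of the control mean. By exact permutation of the libraries, two-sided, p was 0.1, and 3 against 3 cannot go lower. The limma call was lost with equal library sums (0.0888), with a replicate block (0.0542) and without flox control 1 (0.0707), flox control 3 (0.0637) or CKO 3 (0.0535). CKO 3 held 4037 reads of the X-inactivation transcript Xist, against 0 to 5 in the others. It held 33 reads of the Y chromosome gene Ddx3y, against 1004 to 1495 in the others. By these genes CKO 3 came from a female and the other libraries from males, so sex differed within the CKO group. Without CKO 3 the residue was 4.82% for Lrtm1, 3.10% for Rtn4r and 20.5% for Pla2g5. All 8 cardiomyocyte markers, Myh6 and Tnnt2 among them, were expressed, with a summed level of 18377 to 22194 FPKM in controls and 14359 to 18824 FPKM in CKO. All 8 had negative fold changes, with a median of -0.32 against 0.01 for all genes tested, and 1 of them, Tnni3, fell while 7 did not pass. Their part in the low values of the 3 genes was not tested. In bulk tissue, fewer cells of a type and less RNA per cell cannot be told apart.

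Of 6 atrial markers, all tested, Stard10 and Sln fell, Nppa rose and 3 did not pass. Fold changes were negative for 5 of the 6. Their summed level, most of it Nppa in CKO, was 186 to 421 FPKM in controls and 562 to 2112 FPKM in CKO. Myl7, the atrial light chain gene, gave 154, 56.6 and 244 FPKM in control replicates 1, 2 and 3 and 39.2, 24.1 and 40.7 FPKM in those of the knockout. Flox control 2 was thus the lowest control for Myl7 and the highest for both Rtn4r and Lrtm1. For Pla2g5 the controls could not be ordered. Flox controls 1, 2 and 3 gave 9.74, 9.73 and 10.3 FPKM, with overlapping counting intervals. The part of atrial tissue in the low values of the 3 genes was not tested. Neuron and Schwann cell markers were set beside Rtn4r because that gene is best known in neurons, and the summed level of 8 genes was 2.71 to 3.53 FPKM in controls and 4.95 to 7.89 FPKM in CKO. Of the 2 that could be tested, 1 rose (Tubb3) and 1 had a negative fold change and did not pass, so the 2 did not move together. Among the others, Th had no reads in any library, and Snap25 had 1 read, in CKO 3. CKO 1, the CKO library with the highest Pla2g5 and the lowest Lrtm1, was also the one with the most macrophage RNA: the 6 markers summed to 74.2 to 143 FPKM in controls and to 561, 102 and 54.9 FPKM in CKO 1, 2 and 3. None of them passed the test (limma, with 0 at an unadjusted p under 0.05 and 0 by voom), and their part in the level of Pla2g5 or Lrtm1 in CKO 1 was not tested.

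Whether neighbouring genes changed was asked of all genes within 500 kb of the 3 loci. Of 104 such genes, 34 were tested, and 2 of them passed, which is 5.88% against 11.2% of all genes tested (limma on log2-transformed FPKM + 1, Benjamini-Hochberg adjusted p under 0.05). One rose and the other fell, where 5.69% of all genes tested were called higher and 5.49% lower. The median log2 fold change of the 34 genes was -0.05, against 0.01 for all genes tested, and the lowest was -1.08. Groups did not overlap in 10 of the 34, 6 of them with CKO lower, near the shares of 34.3% and 17.4% over all genes tested.

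Lrtm1 sits wholly within an intron of Cacna2d3, on the opposite strand. Cacna2d3 encodes an accessory alpha2delta subunit of voltage-gated calcium channels. In the GENCODE M21 annotation the intron spans 61127 bases (chr14:28982374-29043500), and no exon of Cacna2d3 overlaps Lrtm1. The host gene was barely expressed, at 0.109, 0.118 and 0.0690 FPKM in control replicates 1, 2 and 3 and 0.00639, 0.0295 and 0.0127 FPKM in those of the knockout. It was lower in every CKO library than in any control, on 12 to 18 reads in controls and 1 to 5 in CKO, and lay under the mean of 1 FPKM needed for a test. With strand marking not described, reads from the 2 strands of this intron cannot be told apart. The nearest genes on either side, Gm23999 and Gm48004, had 0 and 2 reads in all. The only tested gene within 500 kb was Wnt5a, a secreted signalling protein gene 491 kb away, with 1.57 ± 0.414 and 1.02 ± 0.445 FPKM (SD, n = 3 each; log2 fold change -0.36, SE 0.21, limma adjusted p = 0.314).

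At the Rtn4r locus, 18 neighbours were tested and none passed (limma, with 3 at an unadjusted p under 0.05 and 0 called by voom). The closest was Prodh, the mitochondrial proline dehydrogenase gene, on the minus strand, whose start lies 37.4 kb to the left. Prodh gave 6.17, 6.27 and 3.04 FPKM in control replicates 1, 2 and 3 and 1.62, 1.14 and 2.95 FPKM in those of the knockout. No CKO library reached a control, though CKO 3 nearly met flox control 3. The log2 fold change was -1.08 (SE 0.30, limma adjusted p = 0.0688), and the adjusted p was 0.0372 when every library was rescaled to the same sum. Prodh overlaps Dgcr6 on the opposite strand, so reads of this pair cannot be told apart where they overlap. Dgcr6 itself had 11.1 ± 0.949 and 9.83 ± 1.48 FPKM (SD, n = 3 each; limma adjusted p = 0.441). On the right the nearest gene, the microRNA locus Mir6366, had no reads, and the nearest tested gene was Zdhhc8, a palmitoyltransferase gene 68.3 kb away, with 12.1 ± 0.468 and 11.5 ± 0.595 FPKM (SD, n = 3 each; limma adjusted p = 0.648). Slc25a1, the mitochondrial citrate carrier gene, had a log2 fold change of 0.33 (limma adjusted p = 0.0857).

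Pla2g5 lies in a cluster of secreted phospholipase A2 genes on chromosome 4, where its relatives were almost without reads in these hearts. Pla2g2a, which lies inside Pla2g5 on the opposite strand and is annotated as a polymorphic pseudogene, had no reads, and nor had Gm25280, also inside it. Pla2g2d, the nearest gene on the left, had 1 read in all, Pla2g2f had 1, Pla2g2c had at most 4 per library and Pla2g2e at most 3. Gm13030, the nearest on the right, had 1 read.

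Of 15 tested neighbours of Pla2g5, 1 rose and 1 fell. Tmco4, a membrane protein gene 109 kb away, rose from 3.57 ± 0.926 to 6.46 ± 0.830 FPKM (SD, n = 3 each; log2 fold change 0.72, SE 0.16, limma adjusted p = 0.0370). Akr7a5, an aldo-keto reductase gene 447 kb away, fell from 19.1 ± 0.525 to 11.3 ± 1.99 FPKM (SD, n = 3 each; log2 fold change -0.72, SE 0.13, limma adjusted p = 0.0212). The Akr7a5 call was lost without any 1 flox control (adjusted p 0.0678 to 0.0770). The Tmco4 call was lost with no filter (0.0878), with a replicate block (0.0937) and without any 1 library other than flox control 2 (0.0567 to 0.130). Cda, the cytidine deaminase gene, had the next smallest p (log2 fold change -0.36, limma adjusted p = 0.138). The nearest tested genes did not pass: Otud3, a deubiquitinase gene 31.9 kb to the right, had 4.59 ± 0.821 and 4.37 ± 0.796 FPKM (SD, n = 3 each; limma adjusted p = 0.847), and Camk2n1, a CaM kinase inhibitor gene 339 kb to the left, 6.32 ± 0.354 and 7.97 ± 1.56 FPKM (limma adjusted p = 0.239).

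**Figure D2:**
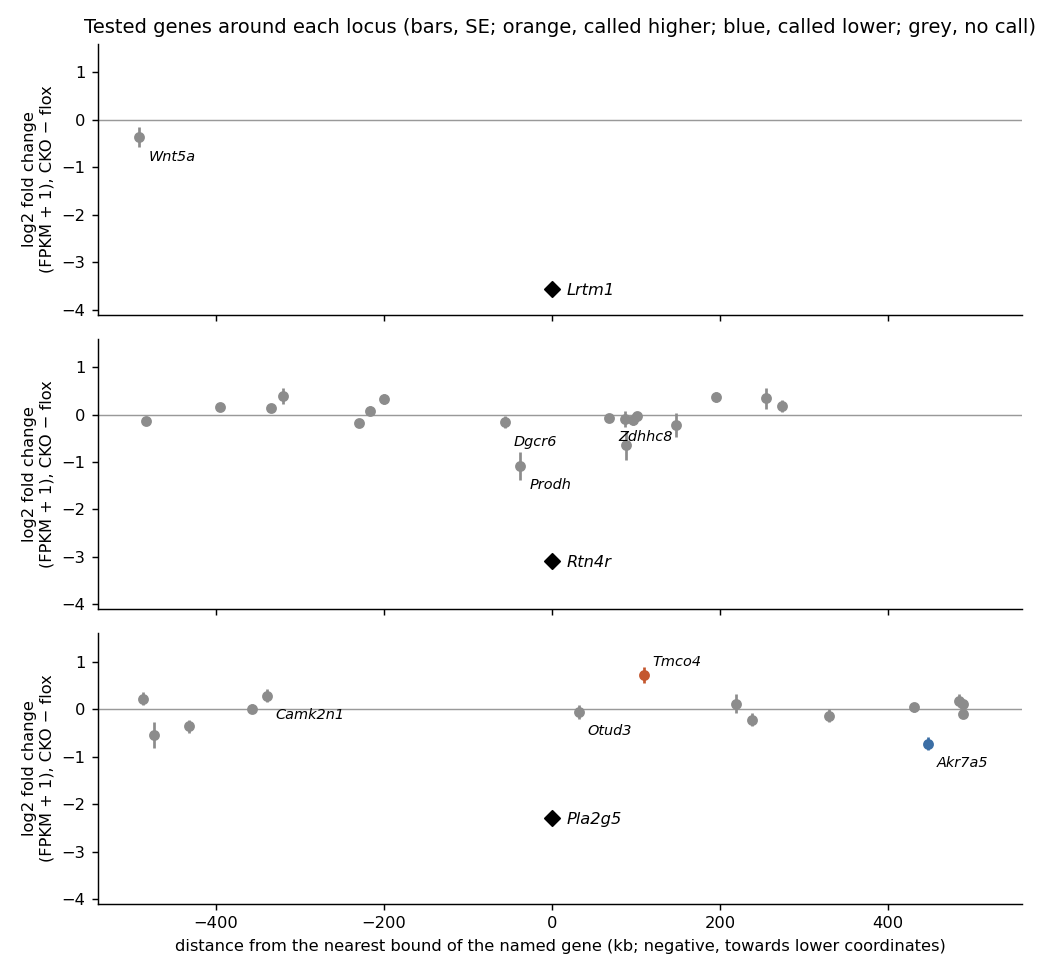
Difference in log2-transformed FPKM + 1 (CKO minus flox control) of each tested gene within 500 kb of Lrtm1 (top), Rtn4r (middle) and Pla2g5 (bottom), by distance in kb; bars are SE, black diamonds are the 3 genes, orange was called higher, blue lower and grey neither. The neighbours lie between -1.08 (Prodh) and 0.72 (Tmco4), all above the diamonds at -3.56, -3.09 and -2.30.

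The transcripts themselves shared few features. In GENCODE M21 no exon base of the 3 genes is shared with another gene. The longest coding transcript had 3 exons and 7321 bases in Lrtm1, 2 exons and 1938 bases in Rtn4r, and 6 exons and 2289 bases in Pla2g5, against a median of 9 exons over 10858 tested genes with a coding transcript. Lrtm1 has a 6322-base exon, longer than the longest exon of 97.6% of those genes, while the longest exons of Rtn4r (1677 bases) and Pla2g5 (1418 bases) were near the median of 1493. The motif GGACT, a common form of the m6A consensus, occurred 6 times in Lrtm1 (0.820 per kb), 2 times in Rtn4r (1.03 per kb) and 4 times in Pla2g5 (1.75 per kb). The median over those genes was 1.05 per kb, so the 3 genes lay below, near and above it. These are counts of letters on the transcript strand, and m6A was not analysed here.

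Genes of the Nogo receptor pathway were read from ligands to effectors. Of 19 tested genes among 28 listed, Rtn4r itself not counted, 2 rose, 1 fell and 16 did not pass, where 11.2% of all genes tested were called, so the share is near that of all genes. The median log2 fold change was 0.17, against 0.01 for all genes tested. Among ligands, Rtn4, which encodes Nogo, gave 17.4, 16.8 and 19.7 FPKM in control replicates 1, 2 and 3 and 29.2, 40.4 and 42.5 FPKM in those of the knockout, so every CKO heart lay above every control. Rtn4 rose 2.08-fold by the ratio of means (log2 fold change 1.004, SE 0.16, limma adjusted p = 0.0137). The deposited value sums all Rtn4 isoforms, of which Nogo-A is one. The myelin ligand genes were near or at 0: Mag had at most 16 reads in a library and Omg had none.

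The related receptor genes did not pass the test. Rtn4rl1 had 5.57 ± 0.717 and 7.69 ± 0.670 FPKM (SD, n = 3 each; log2 fold change 0.41, limma adjusted p = 0.0617), and Rtn4rl2 3.56 ± 1.18 and 4.01 ± 0.383 FPKM (0.17, limma adjusted p = 0.636). In every control Rtn4r had the highest FPKM of the 3 receptor genes, and in every CKO heart the lowest. Its lead in flox control 3, 6.89 against 6.36 FPKM for Rtn4rl1, was within counting error. The change of order largely restates the fall that selected Rtn4r. The partner receptors were low throughout: Lingo1 at 0.338 to 0.692 FPKM in controls and 0.154 to 0.218 FPKM in CKO, and Ngfr, the p75 neurotrophin receptor gene, at 0.304 to 1.54 FPKM over all libraries. Neither reached the mean needed for a test.

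Downstream genes mostly did not pass. Cfl2, the muscle cofilin gene, rose from 82.7 ± 6.02 to 122 ± 14.2 FPKM (SD, n = 3 each; log2 fold change 0.55, SE 0.13, limma adjusted p = 0.0401). Arhgdia had 96.1 ± 9.48 and 145 ± 21.6 FPKM (SD, n = 3 each; log2 fold change 0.58, limma adjusted p = 0.0547). It was called higher with voom (limma adjusted p = 0.0443) and without CKO 1 (0.0255). The kinase gene Rock1 had 13.6 ± 1.62 and 10.6 ± 0.874 FPKM, and Rock2 9.38 ± 0.913 and 10.8 ± 0.737 FPKM (SD, n = 3 each). Rtn2, another reticulon gene, fell from 17.8 ± 2.40 to 6.69 ± 2.40 FPKM (SD, n = 3 each; log2 fold change -1.34, SE 0.24, limma adjusted p = 0.0216). These calls were sensitive to single libraries: Rtn4 was lost without flox control 1 (0.0629) or 2 (0.0533), and Rtn2 with no filter (0.0552) or without any 1 flox control or CKO 3 (0.0542 to 0.0879). Cfl2 was lost without any 1 library other than CKO 1 (0.0772 to 0.134), with no filter (0.0678) and with a replicate block (0.119).

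Pla2g5 was set beside 52 other phospholipase A2 and eicosanoid genes. Of 25 tested, 1 rose, none fell and 24 did not pass, where 5.69% of all genes tested were called higher and 5.49% lower. The median log2 fold change was 0.34, against 0.01 for all genes tested, and 6 fold changes were below 0. Other settings called 1 gene lower: Pla2g4e with no filter (limma adjusted p = 0.0191), and Pnpla8 with a mean of at least 5 FPKM (0.0495) or with voom (0.0442). Among secreted enzymes Pla2g12a was also well expressed, at 7.20 ± 1.79 and 9.999 ± 2.79 FPKM (SD, n = 3 each; log2 fold change 0.41, limma adjusted p = 0.293). In controls the mean of Pla2g5 was above that of Pla2g12a, and in CKO hearts Pla2g5 was below Pla2g12a in every library. This change of order largely restates the fall that selected Pla2g5. Pla2g3 lay at 0.182 to 0.525 FPKM over all libraries, and Pla2g1b, Pla2g10 and Pla2g12b had at most 2 reads in any library. The receptor gene Pla2r1 had 0.727 ± 0.0769 and 0.796 ± 0.0134 FPKM (SD, n = 3 each), too low for the test.

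Of the intracellular phospholipases, Pla2g16 rose from 15.9 ± 2.69 to 31.6 ± 7.43 FPKM (SD, n = 3 each; log2 fold change 0.94, SE 0.20, limma adjusted p = 0.0348). That call was lost without any 1 library other than CKO 2 (0.0614 to 0.115), with no filter (0.0786) and with a replicate block (0.0856). Pla2g4a, the cytosolic enzyme that supplies arachidonic acid to cyclooxygenases, had 0.660 ± 0.188 and 1.35 ± 0.124 FPKM (SD, n = 3 each; log2 fold change 0.51, limma adjusted p = 0.0541, and 0.0241 with voom). Pnpla8, a calcium-independent phospholipase gene, had 7.57 ± 0.831 and 5.37 ± 0.565 FPKM (SD, n = 3 each; log2 fold change -0.43, limma adjusted p = 0.0529). Ptger4, a prostaglandin E2 receptor gene that overlaps Ttc33 on the opposite strand, had 0.946 ± 0.120 and 2.04 ± 0.605 FPKM (SD, n = 3 each; log2 fold change 0.63, limma adjusted p = 0.0629). Pla2g4e, another cytosolic family member singled out after its values were seen, gave 1.27, 1.68 and 1.72 FPKM in control replicates 1, 2 and 3 and 0.280, 0.177 and 0.222 FPKM in those of the knockout. Like Pla2g5 it was lower in every CKO heart than in any control, with a mean below the filter of 1 FPKM.

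Other leucine-rich repeat membrane protein genes included some with large falls. Of 14 tested genes among 52 found, none rose, 3 fell and 11 did not pass, where 5.49% of all genes tested were called lower. The median log2 fold change was -0.22, against 0.01 for all genes tested. Lrrc15 gave 3.36, 3.33 and 5.93 FPKM in control replicates 1, 2 and 3 and 0.0945, 0.155 and 0.0416 FPKM in those of the knockout, from 4 to 16 reads. Its log2 fold change was -2.21 (SE 0.20, limma adjusted p = 0.00414). Lingo3, a relative of the Nogo receptor partner Lingo1, fell from 2.74 ± 0.742 to 0.416 ± 0.0806 FPKM (SD, n = 3 each; log2 fold change -1.38, SE 0.17, limma adjusted p = 0.00725). Lrfn4, a synaptic adhesion family gene that overlaps Pcx on the opposite strand, fell from 6.34 ± 0.637 to 2.98 ± 0.351 FPKM (SD, n = 3 each; log2 fold change -0.88, SE 0.11, limma adjusted p = 0.00725). These 3 calls held in the 11 alternatives that tested them, and all 3 genes lay below the stricter mean of 5 FPKM. Lrrc3b had 10.9 ± 3.03 and 5.19 ± 1.64 FPKM (SD, n = 3 each; log2 fold change -0.94, limma adjusted p = 0.0561). It was called lower with a mean of at least 5 FPKM (limma adjusted p = 0.0456), with voom (0.0490) and without CKO 1 (0.0252). Lrtm2, the namesake of Lrtm1, had at most 4 reads per library. Of the alpha2delta subunit genes, 1 of 4 was tested: Cacna2d1 had 12.4 ± 0.755 and 8.54 ± 1.88 FPKM (SD, n = 3 each; log2 fold change -0.51, limma adjusted p = 0.0802).

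**Figure D3:**
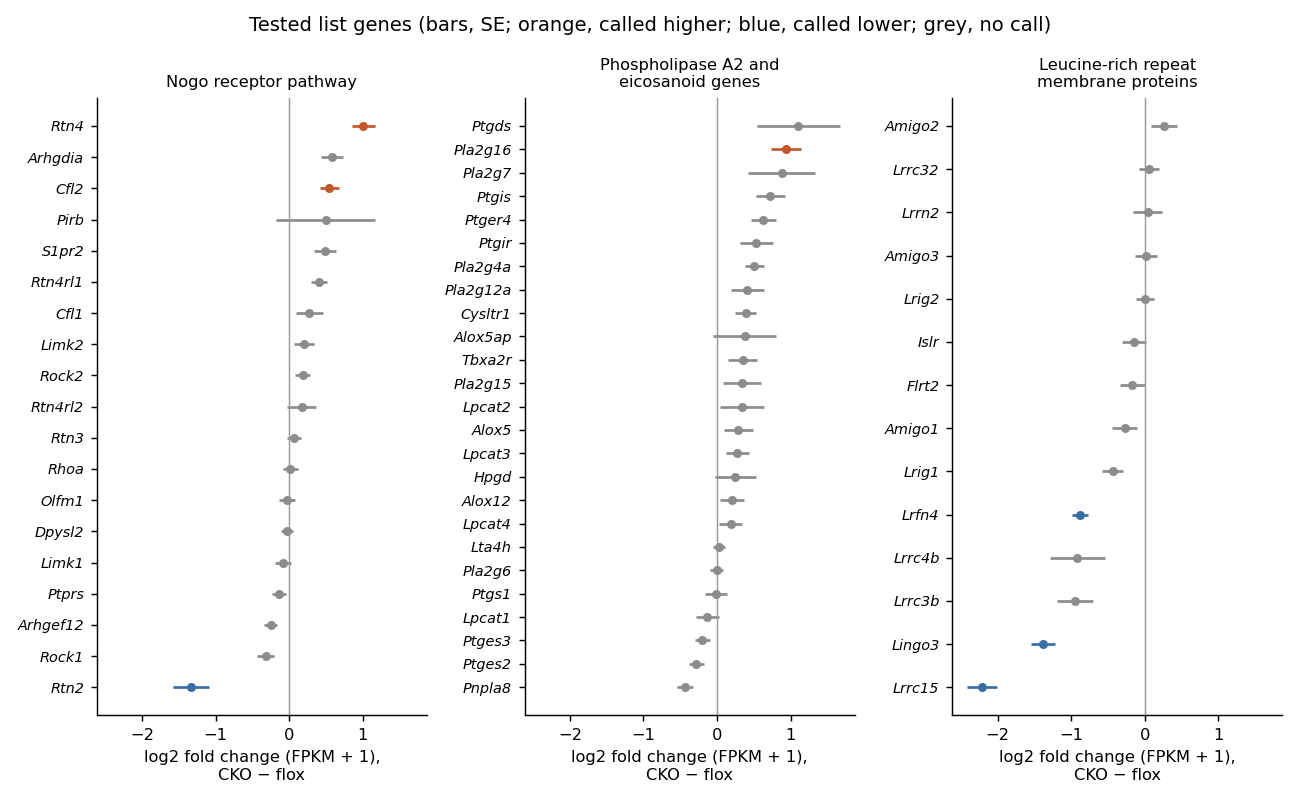
Difference in log2-transformed FPKM + 1 (CKO minus flox control) of every tested gene of the Nogo receptor, phospholipase A2 and eicosanoid, and leucine-rich repeat lists; bars are SE, orange was called higher, blue lower and grey neither. Rtn4 at 1.004 and Rtn2 at -1.34 are the extremes of the first list, Pla2g16 is the only called gene of the second, and Lrrc15 at -2.21, Lingo3 at -1.38 and Lrfn4 at -0.88 are the called genes of the third.

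The genes whose profile was most like each of the 3 were found by the root mean square difference of log2-transformed FPKM + 1, each gene centred on its own mean. This is a description over 6 libraries, and the fall that selected the 3 genes makes up most of it, so closeness between them largely restates that choice. Rtn4r was the gene closest to Lrtm1 of all those tested (difference 0.45, Pearson r = 0.974), followed by Slc36a2 (0.62), the Kelch family gene Klhl33 (0.74), the oxoglutarate dehydrogenase-like gene Ogdhl (0.76) and Lrrc15 (0.80). For Rtn4r the nearest were Ogdhl (0.41), Slc36a2 (0.44), Lrtm1 (0.45), Klhl33 (0.55) and 2210407C18Rik (0.56), with r between 0.960 and 0.986. Lrtm1 and Rtn4r thus shared Slc36a2, Klhl33 and Ogdhl among their nearest genes.

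Pla2g5 had other nearest genes. The closest was Hrc (0.23, r = 0.989), which encodes a calcium-binding protein of the sarcoplasmic reticulum. Also among the 5 closest were Ces1d (0.31), a carboxylesterase gene with close paralogs whose reads may be split between copies, Vtn (0.34), the vitronectin gene, and Asb15 (0.35). In all 4 of these genes CKO 1 was the highest CKO library, as for Pla2g5: CKO replicates 1, 2 and 3 gave 78.1, 35.3 and 41.96 FPKM for Hrc. Likeness to Pla2g5 over these same libraries chose the genes, so their high CKO 1 largely restates that choice. The ratio of control to CKO mean FPKM ran from 3.78 for Vtn to 4.99 for Ces1d, against 6.43 for Pla2g5, 21.3 for Lrtm1 and 34.9 for Rtn4r. Counted from Pla2g5, Rtn4r was the 130th and Lrtm1 the 861st closest gene.

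**Figure D4:**
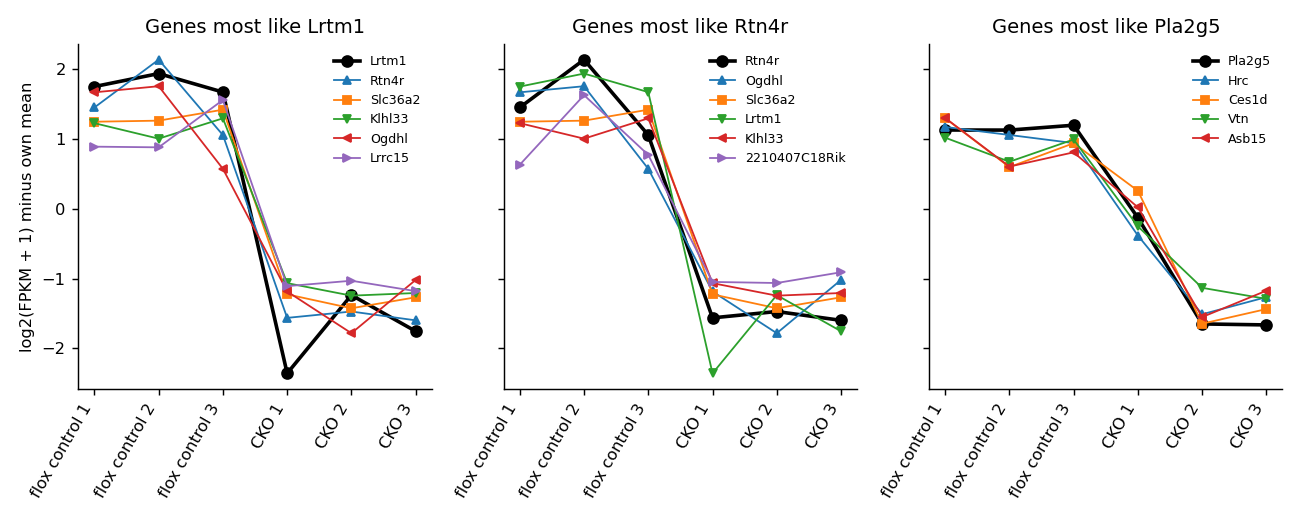
Profiles of log2-transformed FPKM + 1, each minus its own mean over the 6 libraries, for Lrtm1, Rtn4r and Pla2g5 (black) and the genes most like each (colours; 5 for Lrtm1 and Rtn4r, 4 for Pla2g5). The genes like Pla2g5, chosen by likeness over these libraries, share its high CKO 1. Lrtm1 is lowest in CKO 1, which the 5 genes nearest to it are not.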

How the data were processed

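Heart messenger RNA was sequenced from 3 flox control and 3 CKO mice after poly-T selection, per the labels' protocols. The deposited values are the authors' FPKM for each gene. The tools named in the submitters' processing notes are HISAT2 2.0.5, CASAVA, DESeq2 1.20.0 and featureCounts 1.5.0-p3, on GRCm38.p6, with no role given for each. Strand marking is not described. Multiplied by gene length, 100% of values were multiples of 1 unit per library (tolerance 0.001), from which reads were recovered. The 12144 genes averaging 1 FPKM or more were fitted with limma 3.58.1 (R 4.3.3) on log2(FPKM + 1) against genotype, with a trended variance, two-sided p-values and Benjamini-Hochberg adjustment over all of them; fold changes on this scale understate changes of low genes. The limma p-values set the group difference against the spread between libraries within groups, moderated towards a trend over all tested genes. Poisson intervals are exact.

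The members and lists were chosen with earlier results of these data known, as were the tests. Genes named are Ythdc1, the 3 members, genes that overlap them, their nearest genes and nearest tested genes, up to 3 neighbours per member and 4 genes per list with the smallest adjusted p (2 where none passed), the 5 most alike genes per member and a few fixed by name; others were chosen after their values were seen, to illustrate a list or rank. A few genes that this rule names are not reported here. Markers covered cardiomyocytes, atrium, fibroblasts, endothelium, mural cells, macrophages, neurons and Schwann cells, mast cells, adipocytes and skeletal muscle. Alternatives were a pseudocount of 0.1, no filter, a mean of at least 5 FPKM, equal library sums, voom run on the recovered reads, a replicate block and each library left out. On simulated data for CKO against flox control the fit recovered 88.5% of 200 genes changed 2-fold (12002 genes) and 95% changed 4-fold (12015 genes), with 8.76% and 7.77% of calls false. The simulation gave every gene the same relative spread beyond counting error and changed no gene with few control reads. These rates need not hold for the more variable or lower genes of the real data. Promoters come from RefSeq (GRCm38.p6) and transcripts from GENCODE M21 (GRCm38); all 3 genes matched both. Other steps used matplotlib 3.10.9, scipy 1.17.1, pandas 2.3.3 and numpy 2.4.6 in Python 3.11.15.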

Additional observations from a re-analysis of the deposited data

How the results depend on the processing

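The log2 ratio of mean FPKM was -4.42 for Lrtm1, -5.12 for Rtn4r and -2.69 for Pla2g5. Without each library in turn it was -5.12 to -3.98 for Lrtm1, -5.36 to -4.74 for Rtn4r and -4.14 (without CKO 1) to -2.28 for Pla2g5, and with equal library sums -4.28, -5.02 and -2.66. Called genes, 1358 of 12144 with all libraries, numbered 798 with no filter, 715 with the replicate block and 315 to 1490 without 1 library (315, 602 and 472 without flox controls 1, 2 and 3, and 1490, 715 and 579 without CKO 1, 2 and 3). Called neighbours, 2 of 34, numbered 1 with no filter, 1 with the replicate block and 0 to 2 without 1 library. Called Nogo pathway genes, 3 of 19, numbered 1 with no filter and 0 to 4 without 1 library. Called phospholipase and eicosanoid genes, 1 of 25, numbered 2 with a mean of at least 5 FPKM, 3 with voom and 0 to 1 without 1 library. With no filter 0 were higher and 1 lower, with at least 5 FPKM 1 and 1, and with voom 2 and 1. The gene called was not always Pla2g16. It was Ptgis, called higher, with the replicate block (limma adjusted p = 0.0326) and without CKO 1 (0.0228), and Ptger4, also higher, without CKO 3 (0.0327). Called leucine-rich repeat genes, 3 of 14, numbered 1 with a mean of at least 5 FPKM and 3 to 4 without 1 library. The 1 gene called with a mean of at least 5 FPKM was Lrrc3b, which is not among those 3. The Ythdc1 fold change was -0.50 with equal library sums (limma adjusted p = 0.0888) and -0.54 with the replicate block (0.0542), where it lost its call, and -0.60 to -0.50 without 1 library (0.0263 to 0.0707). With a mean of at least 5 FPKM Ythdc1 was not tested. The causes of these changes were not tested, beyond fewer samples or other genes tested. Same-numbered libraries did not all deviate together (correlations 0.139, 0.060 and -0.005 for numbers 1, 2 and 3), so the numbers were not taken as pairs. Rtn4r rested on 9 to 14 reads per CKO library, where differences among CKO hearts are within counting error.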

Other observations

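Skeletal muscle markers, a sum carried by Ckm, lay at 386 to 507 FPKM in flox controls and 191 to 347 FPKM in CKO, with no reads of Myod1 or Myog. Only 1 of the 6 was tested, and it did not pass (log2 fold change -0.77). No change of skeletal muscle RNA is read from this sum. Fibroblast (428 to 542 and 455 to 653 FPKM), endothelial (215 to 220 and 171 to 232 FPKM), mural (402 to 766 and 368 to 528 FPKM), mast cell (4.09 to 4.63 and 4.11 to 5.60 FPKM) and adipocyte sums (129 to 218 and 181 to 223 FPKM) overlapped between flox control and CKO libraries. Of these lists, Tcf21 and Vwf rose and the other tested genes did not pass. Only 1 of the 6 adipocyte markers averaged 1 FPKM or more, so nearly all of the adipocyte sum came from that gene.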
